A study of Homo sapiens with 24 samples.

Results

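The first full day of neural induction was described by setting the 4 arrays taken at 24 h against the 4 taken at 0 h, 8 of the 24 arrays of the series. The samples were chosen by their titles, with no measured value used, though the comparison was chosen with earlier results of these data known. The 24 h cells were H1 cells 24 h after the start of dorsomorphin treatment, and the 0 h cells were H1 cells at its start. H1 is an established line of human embryonic stem cells, and dorsomorphin, also named compound C, is a small molecule that blocks the type I receptors of bone morphogenetic proteins (BMPs) and also AMP-activated protein kinase. Per the labels' protocols, both groups had been grown on Matrigel in mTeSR, plated densely as single cells and brought to confluency, and the induced cells were then moved to DMEM/F12 with KSR, a serum replacement. A difference between 24 h and 0 h therefore holds the time, the new medium and the compound together, and these cannot be told apart, since no sample without the compound at a later time was analysed here. Both times lie a whole day apart, so the time of day is alike. Total RNA was hybridised to bead arrays of the type HumanHT-12 v4. The labels number the 4 arrays of a time as replicates without saying whether the cultures were separate, so the p-values reflect the spread among arrays, possibly a technical one.

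Human embryonic stem cells are held in their undifferentiated state by FGF signals through the ERK kinases and by Activin or Nodal signals, and BMP signals draw them towards other fates. When BMP and Nodal signals are blocked, such cells tend to take the neural fate, the state they also take in the embryo where BMP antagonists act. ERK signalling is usually read from its feedback inhibitors, BMP signalling from the ID genes, and the first neural steps from transcription factors of the SOX, OTX and IRX families.

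Values are log2 signals, and a change is the mean at 24 h minus the mean at 0 h with its standard error from a limma model over all 24 arrays. A gene was called when its p-value, adjusted by the Benjamini-Hochberg method over all 10215 genes tested, was below 0.05. Levels under 7.10, the background taken from olfactory receptor genes, are called below background and stayed in the means and the fit. A gene was tested when it was above 7.10 on at least 4 of the 24 arrays. Some tested genes were therefore below it on all arrays of 24 h and 0 h. The gene lists and their members were chosen with earlier results of these data known. Their counts beside the shares of all genes tested are therefore description, and no list was tested. Over the 10215 genes, arrays of 24 h correlated with one another at r from 0.975 to 0.989, arrays of 0 h at 0.98 to 0.99, and a 24 h with a 0 h array at 0.967 to 0.984. Replicate 2 at 24 h and replicate 2 at 0 h deviated in the same way from the other arrays of their times, and 4 arrays of the other times did so too. The gene that marks them, CLEC2A, measured 7.47 on replicate 2 and 10.11 to 10.62 on the other 24 h arrays, against 7.37 on replicate 2 and 9.18 to 10.71 on the other 0 h arrays. Replicates 1 and 2 also differed slightly from replicates 3 and 4 in the lower quartile of the log2 values, which was 6.527 and 6.528 against 6.516 at 24 h and 6.525 and 6.527 against 6.515 at 0 h. What these sets of arrays are is not given in the labels. Of 88 called genes named here, 15 had a log2 change more than 2 times as large from one of these pairs of replicates as from the other, and values from each pair are given for TXNIP, ARRDC4, MAP1LC3C and HES6 among them. The others were HES4, SYT4, FADS2, CRY2, MCM3, PCNA, IDH2, DNAJB9, TRIB3, CDH11 and COL5A2.

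Most genes differed little after a day. The median change over all genes tested was 0, its quartiles were -0.12 and 0.12, and 9775 genes (95.7%) lay within 0.5 of no change. At 24 h, 406 genes were called higher (3.97% of those tested) and 331 lower (3.24%), together 7.21%. The changes of at least 2-fold were more often rises, with 52 genes higher (0.509%) and 20 lower (0.196%), and at least 4-fold were 8 rises and 3 falls. The median called rise was 0.51 and the median called fall -0.48, beside a median SD between arrays of 0.16 at 24 h and 0.17 at 0 h. The 4 arrays of each time did not overlap for 1095 genes (10.7%), with 24 h higher for 621 (6.08%) and lower for 474 (4.64%), and 594 of them were also called. Genes named below were mostly picked for large called changes, some also by groups that do not overlap. Separation of the groups given for them is therefore description. Without replicate 3 of 0 h the called rises numbered 259. A fit on replicates 1 and 2 alone called 65 genes higher and 40 lower, and one on replicates 3 and 4 alone 51 and 52, with fewer arrays in each. No gene called in the full fit turned its direction in any of these fits.

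**Figure D1:**
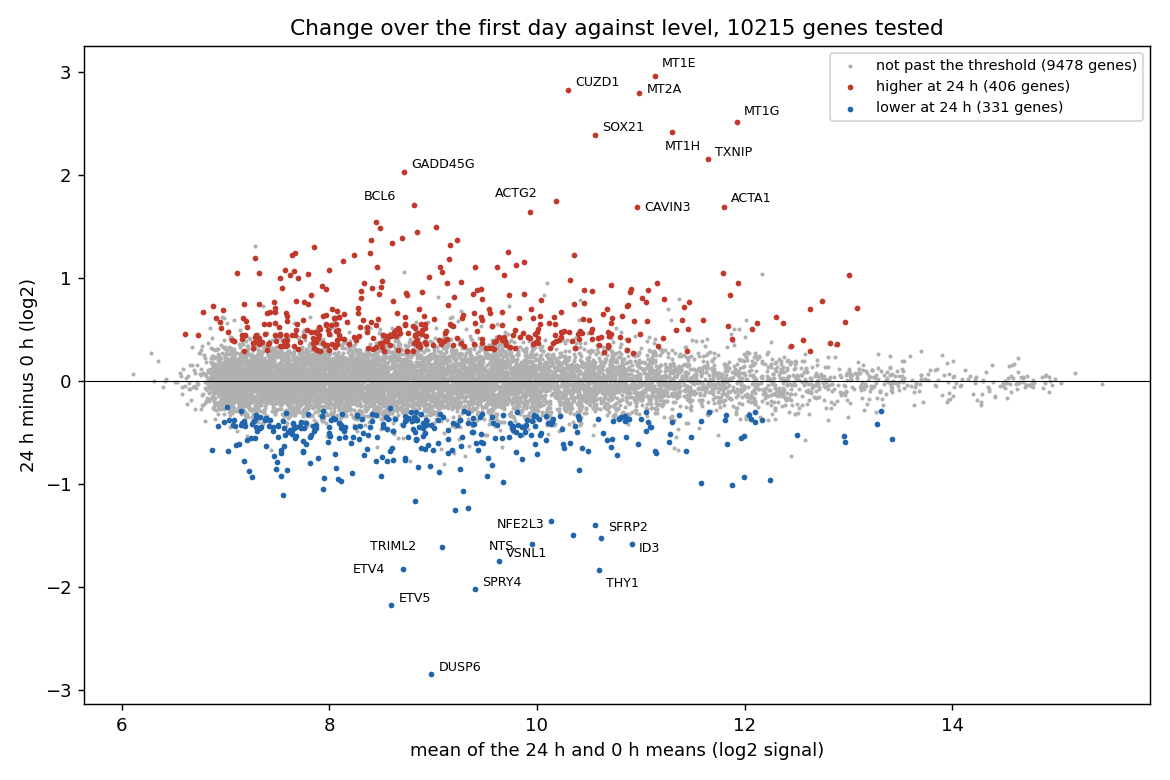
Change in log2 signal between 24 h and 0 h (24 h minus 0 h, vertical axis) against the mean level of both times (horizontal axis) for the 10215 genes tested. Red points are the 406 genes called higher at 24 h and blue points the 331 called lower, grey points are genes that were not called, and the named points reach beyond 2.9 upwards (MT1E) and -2.8 downwards (DUSP6).

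Targets and feedback inhibitors of FGF and ERK signalling formed the group with the lowest median among lists with at least 5 tested members. Of 20 listed genes 16 were bright enough to be tested. Of these, 10 were called lower, beside 3.24% of all genes tested, none higher and 6 were not called. The median change was -0.58 beside 0 over all genes tested. DUSP6, a phosphatase that inactivates ERK, measured 7.44, 7.35, 7.57 and 7.87 at 24 h, against 10.45, 9.79, 10.34 and 11.06 at 0 h. It had the largest fall of all genes tested, -2.85 ± 0.26 or 7.22-fold (adjusted p = 1.72e-07), and every 24 h array lay close above background. SPRY4, a Sprouty inhibitor of receptor tyrosine kinase signalling, measured 8.55, 7.88, 8.41 and 8.71 at 24 h, against 10.59, 10.33, 10.07 and 10.66 at 0 h, a change of -2.03 ± 0.18 (adjusted p = 1.34e-07). ETV5, an ETS transcription factor induced by FGF, measured 7.27, 6.57, 7.56 and 8.62 at 24 h, against 9.81, 9.55, 9.40 and 9.97 at 0 h. Its change was -2.18 ± 0.31 (adjusted p = 6.72e-05), and replicate 2 at 24 h was below background. ETV4, a close relative of ETV5, averaged 7.79 ± 0.39 at 24 h and 9.62 ± 0.31 at 0 h (SD, n = 4 each), a change of -1.83 ± 0.21 (adjusted p = 3.54e-06). The groups did not overlap for any of these 4 genes, which were picked for their large falls, beside 4.64% of all genes tested. The other falls in the list were smaller, from -1.17 to -0.42. PHLDA1, named here after its values were seen, had the highest value in the list, 0.42 ± 0.32, and was not called (adjusted p = 0.488). The count of falls was 8 to 10 when any 1 array was left out, 5 from replicates 1 and 2 alone and 7 from replicates 3 and 4 alone. It was 4 among genes above background on at least 20 arrays, a filter that left DUSP6, SPRY4, ETV4, ETV5, EPHA2 and FOSL1 untested. Immediate early genes, which answer growth factors within minutes to hours, did not share a direction. Among 14 tested, JUN was called higher (0.91 ± 0.28, adjusted p = 0.0466) and FOS lower (-0.79 ± 0.22, adjusted p = 0.0266), and the arrays of 24 h and 0 h overlapped for both. JUN lost its call without replicate 1, 3 or 4 of 24 h and without replicate 2 or 3 of 0 h (adjusted p up to 0.16), and FOS without replicate 2 of 24 h and without replicate 1 or 4 of 0 h (adjusted p up to 0.111). Without replicate 2 of 24 h, 5 genes of the list were called higher.

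**Figure D2:**
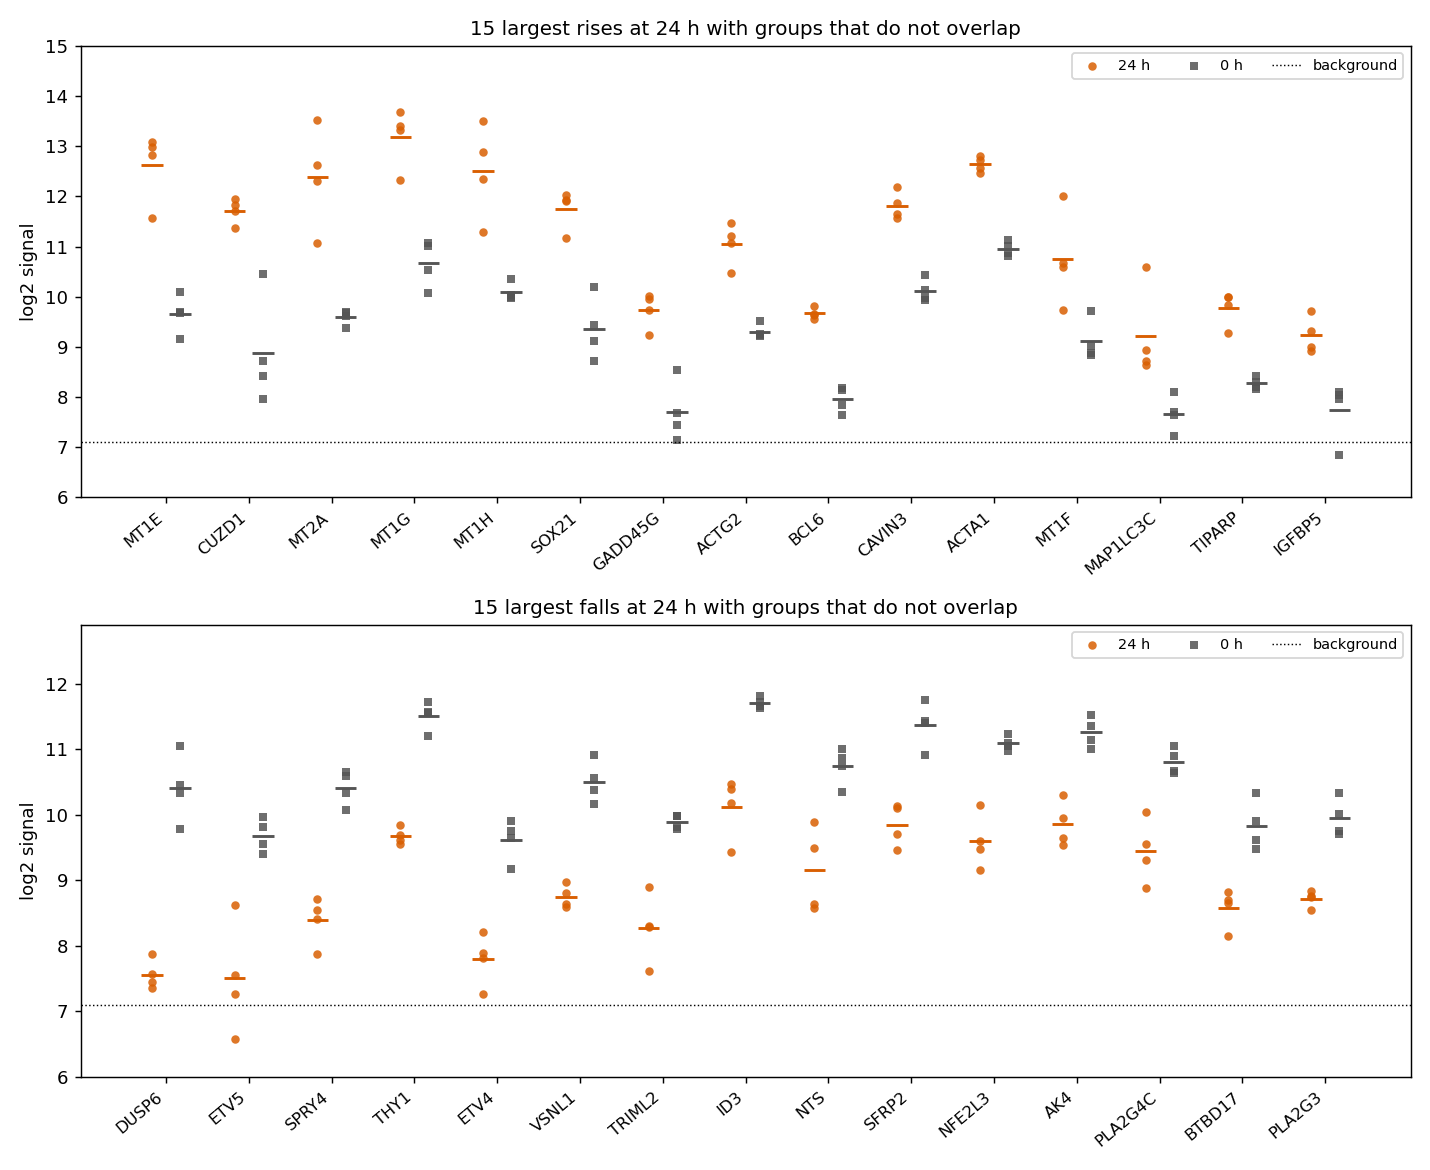
Log2 signal on each array for the 15 largest called rises (upper panel) and the 15 largest called falls (lower panel) among genes whose groups do not overlap, with 24 h as orange circles left of 0 h as grey squares, the mean of 4 arrays as a bar and the background of 7.10 as a dotted line. DUSP6 lies at 7.35 to 7.87 at 24 h and at 9.79 to 11.06 at 0 h, and the metallothioneins spread more widely at 24 h than at 0 h.

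Among 9 tested BMP targets 1 gene was called, beside 7.21% of all genes tested, and 3 had an unadjusted p under 0.05. ID3, an inhibitor of basic helix-loop-helix factors and a direct BMP target, measured 10.48, 10.39, 10.18 and 9.44 at 24 h, against 11.81, 11.67, 11.72 and 11.64 at 0 h. The groups lay far apart, with a change of -1.59 ± 0.23 or 3.01-fold (adjusted p = 8.62e-05), and ID3 stayed well above background. The other 8 members were not called, and the list median was -0.02. ID2, a relative of ID3 named here after its values were seen, came close to the threshold with -0.53 ± 0.17 (adjusted p = 0.0606), and with 1 array left out up to 2 members were called lower. ID1, another direct target, was never above background at either time (6.39 to 6.95 at 24 h and 6.59 to 7.05 at 0 h) and could not be tested. Of 13 tested BMP ligands, receptors and SMAD proteins, BMP7 alone was called. This ligand measured 9.13, 8.75, 8.20 and 8.76 at 24 h, against 8.0, 7.57, 7.16 and 7.46 at 0 h, a rise of 1.16 ± 0.22 (adjusted p = 0.00118). In the list of Nodal and Activin targets, 6 genes could be tested and their values were all negative, with a median of -0.21. GDF3, a ligand of the same family, was called lower: 3 of 4 arrays at 0 h and none at 24 h were above background, so the fall is at least 1.07-fold (adjusted p = 0.00127). LEFTY2, a Nodal antagonist and Nodal target, had a change of -0.38 ± 0.12 that missed the threshold (adjusted p = 0.0566). LEFTY1 was above background on 1 array at 0 h and on none at 24 h, and was not tested.

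Genes of the pluripotent state fell in part. Of 30 listed genes, 29 were annotated and 25 tested. At 24 h, 11 of these were called lower, beside 3.24% of all genes tested, none higher, and 14 were not called. The median was -0.10 beside 0 over all genes tested. NANOG, a core transcription factor of pluripotency, measured 8.10, 8.24, 8.03 and 7.78 at 24 h, against 8.92, 9.19, 8.96 and 8.77 at 0 h, a change of -0.92 ± 0.16 or 1.89-fold (adjusted p = 0.000749). POU5F1, its partner also known as OCT4, measured 11.98, 12.00, 11.87 and 12.08 at 24 h, against 12.31, 12.27, 12.37 and 12.48 at 0 h. The groups did not overlap, but the change was small, -0.38 ± 0.11 (adjusted p = 0.0409), and the call was lost in 12 of 24 other ways of processing the data. Among these were 7 of the 8 fits that left out 1 array, all except that without replicate 2 of 0 h (adjusted p up to 0.113). SOX2, shared by stem cells and neural cells, measured 12.21, 12.65, 12.65 and 12.27 at 24 h, against 11.76, 12.49, 12.08 and 11.96 at 0 h, and its change of 0.38 ± 0.17 was not called (adjusted p = 0.201). The largest falls in the list were of genes outside this core. THY1, a surface glycoprotein used to mark human stem cells, measured 9.62, 9.84, 9.55 and 9.69 at 24 h, against 11.57, 11.55, 11.20 and 11.73 at 0 h, a change of -1.84 ± 0.18 (adjusted p = 5.41e-07). TRIML2, a protein of the tripartite motif family, fell by 1.61 (SE 0.19, adjusted p = 8.33e-06). SFRP2, a secreted Wnt antagonist, averaged 9.85 ± 0.33 at 24 h and 11.38 ± 0.35 at 0 h (SD, n = 4 each), a change of -1.53 ± 0.31 (adjusted p = 0.00315). POLR3G, a stem cell subunit of RNA polymerase III, changed by -0.99 ± 0.17 (adjusted p = 0.000707). In RNA from whole cultures, fewer cells of a type and less RNA per cell cannot be told apart. The count of falls was 8 to 10 when any 1 array was left out, 2 from replicates 1 and 2 alone and 5 from replicates 3 and 4 alone.

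Early neural genes were led by SOX21. This SOXB2 transcription factor of neural progenitors measured 11.91, 12.02, 11.92 and 11.17 at 24 h, against 8.71, 10.19, 9.44 and 9.11 at 0 h. All arrays of 24 h lay above all of 0 h, and the rise was 2.39 ± 0.21 or 5.24-fold (adjusted p = 1.34e-07). The Iroquois factors IRX3 and IRX2, which pattern the neural plate, followed. IRX3 measured 10.11, 10.44, 9.72 and 9.40 at 24 h, against 8.67, 8.49, 8.41 and 8.64 at 0 h, a rise of 1.37 ± 0.30 (adjusted p = 0.00487). IRX2 averaged 11.36 ± 0.40 at 24 h and 10.46 ± 0.26 at 0 h (SD, n = 4 each), a rise of 0.90 ± 0.20 (adjusted p = 0.00684). NES, the intermediate filament nestin of neural stem cells, rose by 0.74 ± 0.15 (adjusted p = 0.00293). These 4 were the only rises called among 27 tested of 40 listed genes, beside 3.97% of all genes tested called higher. The 1 fall was of PROM1 (-0.51 ± 0.11, adjusted p = 0.00517, named here after its values were seen), and the list median was 0.06. The other Iroquois genes tested, IRX1 (-0.15 ± 0.14, adjusted p = 0.583) and IRX5 (0.56 ± 0.28, adjusted p = 0.259), were not called. They too are named after their values were seen. Some of the 27, such as SIX3, OTX1 and LMO1, were below background on all arrays of 24 h and 0 h and were tested only through other times. For such genes the count and the median do not show that they stayed unchanged. From replicates 1 and 2 alone 2 members were called higher, and from replicates 3 and 4 alone 1. OTX2, a forebrain and midbrain factor, measured 10.51, 11.27, 10.67 and 9.86 at 24 h, against 8.97, 10.38, 9.77 and 9.36 at 0 h. Its change of 0.96 ± 0.30 missed the threshold (adjusted p = 0.0516), and the groups overlapped. Replicate 2 was the highest 0 h array for SOX21, IRX2, OTX2 and PAX6, and without replicate 2 of both times the rise of SOX21 was 2.58 and the change of OTX2 0.98 (adjusted p = 0.0512). PAX6, a later marker of neural progenitors, was above background on 1 array at each time (change -0.04 ± 0.27, adjusted p = 0.948), and SOX1 on none. At such levels the test does not show that PAX6 stayed unchanged. Of 9 tested neuronal genes, MAP2, a microtubule-associated protein of dendrites, rose by 0.80 ± 0.14 (adjusted p = 0.000791), and SYT4, a synaptotagmin, changed by -0.77 ± 0.22 (adjusted p = 0.0296), a call lost without replicate 2 or 3 of 24 h and without replicate 1 or 4 of 0 h (adjusted p up to 0.109).

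A few members of the Notch and retinoic acid pathways rose. In the Notch list, 3 of 15 tested genes were called higher and 1 lower, beside 3.97% and 3.24% of all genes tested, with a median of 0.05. DLL1, a Notch ligand, measured 9.25, 9.42, 9.44 and 9.46 at 24 h, against 7.71, 8.78, 7.33 and 8.19 at 0 h. The 24 h arrays were close together and all above those of 0 h, and the rise was 1.39 ± 0.25 (adjusted p = 0.000745). HES4 and HEY2, transcriptional repressors of the family that Notch induces, rose by 1.06 ± 0.29 (adjusted p = 0.0237) and 0.88 ± 0.24 (adjusted p = 0.0255), with groups that overlapped. HES6, which counters other HES factors, changed by -0.61 ± 0.12 (adjusted p = 0.00191), by -0.91 from replicates 1 and 2 alone (adjusted p = 0.00615) and by -0.32 from replicates 3 and 4 alone (adjusted p = 0.29). The rise of HES4 was not called without replicate 1, 3 or 4 of 24 h or without replicate 2 or 3 of 0 h (adjusted p up to 0.105), nor that of HEY2 without replicate 1, 3 or 4 of 24 h or without replicate 1 or 2 of 0 h (adjusted p up to 0.119). From replicates 1 and 2 alone no Notch gene was called higher. In the retinoic acid list, 2 of 8 tested genes were called, both higher and both also from either pair of replicates alone. DHRS3, a reductase that turns retinal back into retinol, measured 10.25, 10.67, 10.51 and 9.96 at 24 h, against 9.0, 9.30, 9.11 and 8.98 at 0 h, a rise of 1.25 ± 0.20 (adjusted p = 0.000208). CRABP2, which carries retinoic acid to its nuclear receptors, measured 12.29, 12.43, 12.19 and 12.34 at 24 h, against 11.25, 11.21, 11.24 and 11.36 at 0 h. Both groups were tight, and the rise was 1.05 ± 0.13 (adjusted p = 1.47e-05). Of 7 tested Wnt targets AXIN2, a feedback inhibitor of the pathway, was called higher (0.70 ± 0.18, adjusted p = 0.0159), measuring 10.27, 10.23, 10.34 and 10.33 at 24 h and 9.27, 9.78, 9.96 and 9.35 at 0 h. The call was lost without replicate 1 or 4 of 0 h (adjusted p up to 0.0614).

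Metallothioneins are small proteins rich in cysteine that bind zinc and copper. Their list, which also holds the zinc exporter SLC30A1, had the highest median of all lists, 2.03 over the 8 members tested. Of these, 5 were called higher, beside 3.97% of all genes tested, none lower, and 3 were not called. MT2A measured 12.63, 13.52, 12.31 and 11.08 at 24 h, against 9.61, 9.67, 9.69 and 9.38 at 0 h, a rise of 2.80 ± 0.49 or 6.95-fold (adjusted p = 0.000707). The 0 h arrays were tight, and the 24 h arrays spread widely, with replicate 2 highest and replicate 4 lowest. MT1E measured 12.99, 13.09, 12.83 and 11.57 at 24 h, against 9.68, 9.16, 10.09 and 9.69 at 0 h, the largest rise of all genes tested, 2.97 ± 0.53 or 7.82-fold (adjusted p = 0.000749). A second measurement listed for MT1E was below background on every array. MT1H measured 12.89, 13.50, 12.35 and 11.30 at 24 h, against 9.98, 10, 10.35 and 10.03 at 0 h, a rise of 2.42 ± 0.55 (adjusted p = 0.00678). MT1G and MT1F rose by 2.52 ± 0.61 (adjusted p = 0.0107) and 1.64 ± 0.45 (adjusted p = 0.0249), the last a call lost without replicate 1 or 2 of 24 h and without replicate 1, 3 or 4 of 0 h (adjusted p up to 0.0879). Replicate 4 was the lowest 24 h array for all 5. MT1X (1.04 ± 0.70, adjusted p = 0.42), MT1M (1.32 ± 0.56, adjusted p = 0.17) and the zinc exporter SLC30A1 (0.21 ± 0.14, adjusted p = 0.428), named here as the rest of the list, were not called. Metallothionein genes are closely alike in sequence, so a value given to a single member may hold signal of others. The rises of MT2A were 3.44 from replicates 1 and 2 alone (adjusted p = 0.00114) and 2.16 from replicates 3 and 4 alone (adjusted p = 0.215). Of the 8 members, 5 were called from the first pair, 0 from the second, and 2, MT1E and MT2A, without replicate 2 of both times. The promoters of MT2A and MT1H are shown because these genes lie in the metallothionein cluster of chromosome 16 and carry the motif that the zinc sensor MTF1 binds, the metal response element, here searched as TGCNCNC on both strands. Capitals mark its matches, 8 in each 300-base window around the start of transcription (RefSeq, GRCh38.p14, plus strand, chr16:56608334-56608633 for MT2A and chr16:56669564-56669863 for MT1H).
MT2A: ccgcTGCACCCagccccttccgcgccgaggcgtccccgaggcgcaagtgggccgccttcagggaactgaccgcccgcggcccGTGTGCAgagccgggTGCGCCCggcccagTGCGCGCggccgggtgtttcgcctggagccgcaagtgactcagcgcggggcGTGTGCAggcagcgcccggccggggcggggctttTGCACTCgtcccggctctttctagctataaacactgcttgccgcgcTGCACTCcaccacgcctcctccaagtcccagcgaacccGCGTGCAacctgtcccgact
MT1H: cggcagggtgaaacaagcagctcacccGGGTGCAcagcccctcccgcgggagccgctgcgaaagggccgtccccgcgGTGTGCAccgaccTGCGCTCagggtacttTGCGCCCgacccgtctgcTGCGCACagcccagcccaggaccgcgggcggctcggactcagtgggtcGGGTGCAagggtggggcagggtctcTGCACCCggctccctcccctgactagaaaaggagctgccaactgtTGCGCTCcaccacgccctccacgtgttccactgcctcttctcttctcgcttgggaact
At least 8 matches stood in 0.0879% of the 27305 promoters of the table, and at least 1 in 55.2%. The promoters of MT1X, MT1B and SLC30A1 held 4, 5 and 2 matches, beside 2.78% of all promoters with at least 4 and 23.8% with at least 2. A match is a run of letters and was not tested as a binding site.

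Several muscle actin genes rose. Serum response factor, SRF, drives them through the CArG box when actin filaments form. Of 17 tested genes of actin and of smooth muscle that SRF controls, 7 were called higher and none lower. Over all genes tested 3.97% were called higher, and the list median was 0.34. ACTG2, the gamma actin of smooth muscle, measured 11.07, 11.48, 11.22 and 10.47 at 24 h, against 9.51, 9.23, 9.22 and 9.26 at 0 h, a rise of 1.75 ± 0.19 or 3.37-fold (adjusted p = 2.04e-06). ACTA1, the alpha actin of skeletal muscle, measured 12.47, 12.73, 12.81 and 12.57 at 24 h, against 10.87, 11.01, 10.81 and 11.14 at 0 h, a rise of 1.69 ± 0.16 or 3.22-fold (adjusted p = 3.43e-07). Both sets of arrays were far apart for each gene, and the rise of ACTA1 was 1.66 from replicates 1 and 2 and 1.72 from replicates 3 and 4. TAGLN, the actin-binding protein transgelin, averaged 13.52 ± 0.18 at 24 h and 12.49 ± 0.45 at 0 h (SD, n = 4 each), a rise of 1.03 ± 0.25 (adjusted p = 0.00968). ACTC1, the alpha actin of heart muscle, rose by 0.96 ± 0.28 (adjusted p = 0.0365), a call lost without replicate 1 or 3 of 24 h and without replicate 1, 2 or 4 of 0 h (adjusted p up to 0.158). SRF itself (-0.04 ± 0.13, adjusted p = 0.892) and ACTA2, another smooth muscle actin (0.01 ± 0.31, adjusted p = 0.99), were not called, both named here after their values were seen. The count of rises was 4 without replicate 1 of 0 h and also 4 without replicate 2 of 0 h, 4 from replicates 1 and 2 alone and 2 from replicates 3 and 4 alone. The promoters of both leading genes are shown with their CArG boxes in capitals, found by a search of both strands (RefSeq, GRCh38.p14, ACTG2 on the plus strand at chr2:73892758-73893057 and ACTA1 on the minus strand at chr1:229434045-229434344).
ACTG2: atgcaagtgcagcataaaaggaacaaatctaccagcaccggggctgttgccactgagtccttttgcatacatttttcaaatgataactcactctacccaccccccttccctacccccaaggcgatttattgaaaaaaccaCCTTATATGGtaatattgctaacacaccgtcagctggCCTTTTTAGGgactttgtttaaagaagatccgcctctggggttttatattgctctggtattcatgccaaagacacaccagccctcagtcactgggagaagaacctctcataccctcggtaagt
ACTA1: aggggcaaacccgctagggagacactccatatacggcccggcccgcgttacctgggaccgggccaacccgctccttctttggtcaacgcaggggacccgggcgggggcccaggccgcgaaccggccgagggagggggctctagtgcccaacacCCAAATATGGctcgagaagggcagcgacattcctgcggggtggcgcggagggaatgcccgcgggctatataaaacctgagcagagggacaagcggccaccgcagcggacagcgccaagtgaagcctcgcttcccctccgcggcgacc
A CArG box stood in 1.29% of the 27305 promoters and at least 2 in 0.033%. Among the 7 called members ACTG2 had 2, ACTA1 and ACTC1 had 1 each, and CNN1, TPM1 and TPM2 had 0. The promoter of TAGLN was not among those searched. Among uncalled members SRF had 2, and CNN2 and FHL2 had 1 each.

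TXNIP and ARRDC4, arrestin-domain proteins that curb glucose uptake, rose together with MLXIPL, a glucose-sensing transcription factor that induces both. They were the 3 rises among 13 tested AMPK subunits and genes of glucose sensing, beside 3.97% of all genes tested. None was lower, and the median was 0.11. TXNIP measured 12.71, 11.41, 12.88 and 13.90 at 24 h, against 11.49, 10.43, 9.21 and 11.16 at 0 h, a rise of 2.15 ± 0.49 or 4.45-fold (adjusted p = 0.00705). Both groups were wide and overlapped, with replicate 2 at 24 h just below replicate 1 at 0 h. From replicates 1 and 2 alone the change was 1.10 (adjusted p = 0.44), and from replicates 3 and 4 alone 3.20 (adjusted p = 0.0496). ARRDC4 measured 8.24, 7.44, 8.33 and 9.25 at 24 h, against 7.61, 7.29, 6.80 and 7.40 at 0 h, a rise of 1.04 ± 0.24 (adjusted p = 0.008), and again replicate 2 was the lowest and replicate 4 the highest at 24 h. From replicates 1 and 2 alone ARRDC4 changed by 0.39 (adjusted p = 0.577), and from replicates 3 and 4 alone by 1.69 (adjusted p = 0.0292). MLXIPL measured 8.96, 8.66, 8.84 and 9.16 at 24 h, against 8.21, 8.19, 7.81 and 8.04 at 0 h, a rise of 0.84 ± 0.18 (adjusted p = 0.00346). At 24 h the order of the arrays for TXNIP was the reverse of that for MT2A. None of 5 tested AMPK subunits was called by limma, and 0 had an unadjusted p under 0.05. The TXNIP promoter is shown for its carbohydrate response element, a pair of E-box-like letters searched as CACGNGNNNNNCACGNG on both strands and given in capitals (RefSeq, GRCh38.p14, minus strand, chr1:145996530-145996829).
TXNIP: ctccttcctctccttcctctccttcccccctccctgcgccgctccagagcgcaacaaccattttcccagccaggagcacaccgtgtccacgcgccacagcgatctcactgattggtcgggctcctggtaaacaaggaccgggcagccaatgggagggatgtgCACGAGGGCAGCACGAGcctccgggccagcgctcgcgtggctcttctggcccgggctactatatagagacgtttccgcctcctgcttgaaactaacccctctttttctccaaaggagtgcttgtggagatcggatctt
This motif stood in 0.0732% of the 27305 promoters. It was found once in the window of TXNIP and not in those of ARRDC4, MLXIPL or MLXIP.

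Genes of cholesterol synthesis fell, with exceptions. Of 17 tested, 9 were called lower and 2 higher, beside 3.24% and 3.97% of all genes tested, with a median of -0.43. INSIG1, the sterol-regulated retention protein of SREBP, measured 9.71, 10.13, 10.08 and 9.98 at 24 h, against 10.61, 10.99, 10.90 and 10.87 at 0 h, a change of -0.87 ± 0.13 (adjusted p = 0.00018). HMGCS1, the synthase that starts the mevalonate pathway, measured 10.64, 11.73, 11.70 and 11.43 at 24 h, against 11.93, 12.24, 12.92 and 12.47 at 0 h, a change of -1.01 ± 0.22 (adjusted p = 0.00457). The groups did not overlap for either gene. DHCR7, the reductase of the last step to cholesterol, changed by -0.76 ± 0.15 (adjusted p = 0.00227). SC5D, a desaturase late in the same path, went the other way, with 11.16, 11.80, 11.63 and 11.06 at 24 h, against 10.28, 10.93, 10.74 and 10.47 at 0 h, a rise of 0.81 ± 0.17 (adjusted p = 0.00482). The second rise was of TM7SF2, a sterol reductase (0.44 ± 0.13, adjusted p = 0.0291), named here after its values were seen. In fatty acid synthesis 3 of 10 tested genes were called lower, none higher, and the median was -0.32. FADS2, a fatty acid desaturase, changed by -0.74 ± 0.15 (adjusted p = 0.0029), the synthase FASN by -0.60 ± 0.14 (adjusted p = 0.00724) and SCD, the stearoyl-CoA desaturase, by -0.56 ± 0.14 (adjusted p = 0.0127). The call of SCD was lost without replicate 1 or 3 of 24 h and without replicate 2 of 0 h (adjusted p up to 0.062). The 9 sterol falls numbered 6 to 10 with any 1 array left out, 1 from replicates 1 and 2 alone and 0 from replicates 3 and 4 alone, where HMGCS1 changed by -0.90 (adjusted p = 0.141) and -1.13 (adjusted p = 0.0629).

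**Figure D3:**
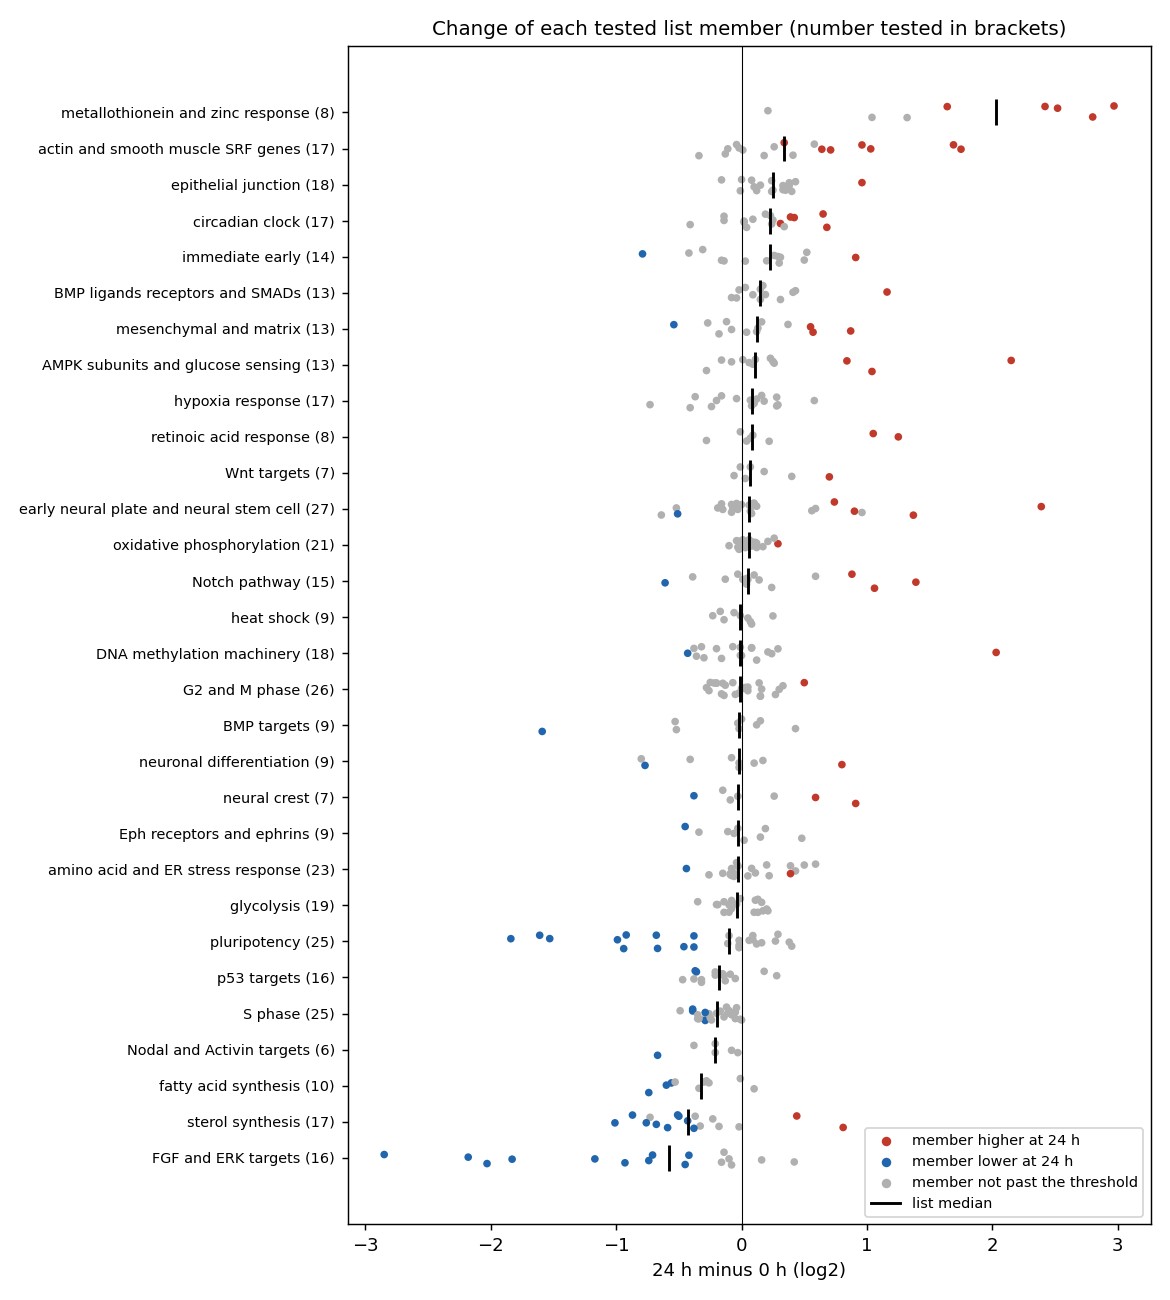
Change of every tested member (24 h minus 0 h, log2) in the 30 lists with at least 5 tested members, ordered by their medians, which are black bars. Red members were called higher at 24 h, blue members lower and grey members were not called. The medians run from 2.03 for the list of metallothionein and zinc response genes to -0.58 for FGF and ERK targets.

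Clock genes were examined because both times fall at the same hour. Of 17 tested, 5 were called higher, none lower, and the median was 0.23. DBP, an output factor of the clock, measured 8.33, 8.25, 8.50 and 8.56 at 24 h, against 7.74, 7.72, 7.72 and 7.74 at 0 h, a rise of 0.68 ± 0.11 (adjusted p = 0.000461). Its 0 h arrays were nearly equal and all 24 h arrays were higher. RORA, a nuclear receptor of the clock loop, rose by 0.65 ± 0.18 (adjusted p = 0.0295). TEF, a relative of DBP, rose by 0.42 ± 0.13 (adjusted p = 0.0475), and CRY2, a cryptochrome repressor, by 0.39 ± 0.11 (adjusted p = 0.0224). BMAL1, the partner of CLOCK, completed the 5 with 0.31 ± 0.09 (adjusted p = 0.0455) and is named to complete the count, beside 3.97% of all genes tested that were called higher. NR1D1, a repressor that usually cycles strongly, was above background on 2 arrays at 24 h and 3 at 0 h and was not called (-0.14 ± 0.11, adjusted p = 0.478), and PER1 was below background on all 8 arrays. The count of rises was 3 without replicate 1, 2 or 3 of 24 h, 1 without replicate 4 of 24 h, and 2 without replicate 1 or 3 of 0 h. It was 0 from replicates 1 and 2 alone and 1 from replicates 3 and 4 alone. With 1 array left out, adjusted p reached 0.124 for RORA, 0.192 for TEF and 0.114 for CRY2.

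Cell cycle, stress and energy genes were mostly not called. Over all genes tested 3.97% were called higher and 3.24% lower, so a single call in a list of this size lies near those shares. All 25 tested S phase genes had negative values, with a median of -0.20, but 4 were called. CHAF1A, a chromatin assembly factor, and MCM4, a helicase subunit, both changed by -0.39 (SE 0.11 and 0.12, adjusted p = 0.0265 and 0.0474). The helicase subunit MCM3 and PCNA, the sliding clamp of replication, both changed by -0.29 ± 0.09 (adjusted p = 0.0495 and 0.0493). No S phase gene was called without replicate 3 or 4 of 24 h or without replicate 2 or 3 of 0 h. Without replicate 1 of 24 h 1 was called, without replicate 1 or 4 of 0 h 2, and without replicate 2 of 24 h 6. Of 26 genes of G2 and M phase BUB1, a mitotic checkpoint kinase, was called higher (0.50 ± 0.14, adjusted p = 0.0308). Of 16 p53 targets, AEN, a nuclease, changed by -0.37 ± 0.11 (adjusted p = 0.0308) and TIGAR, a regulator of glycolysis, by -0.36 ± 0.11 (adjusted p = 0.0364). Of 23 genes of the amino acid and endoplasmic reticulum stress responses, DNAJB9, a chaperone partner, was higher (0.39 ± 0.11, adjusted p = 0.0217) and TRIB3, a pseudokinase, lower (-0.44 ± 0.12, adjusted p = 0.0256). None of 9 heat shock genes, 17 hypoxia genes or 19 glycolysis genes was called by limma, and their medians lay between -0.04 and 0.08. At an unadjusted p under 0.05 these lists held 0, 1 and 1 genes, beside 2127 of all 10215 tested. Of 21 genes of oxidative phosphorylation NDUFA1, a subunit of complex I, rose by 0.29 ± 0.08 (adjusted p = 0.0177). Of the 8 fits that left out 1 array, BUB1, AEN and TRIB3 lost their calls in 4 each (adjusted p up to 0.151, 0.104 and 0.102), TIGAR in 5 (up to 0.166), DNAJB9 in 3 (up to 0.0916) and NDUFA1 in 2 (up to 0.0576).

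In the list of DNA methylation and demethylation genes 1 of 18 was called higher and 1 lower, near the 3.97% and 3.24% of all genes tested. GADD45G, a stress-inducible protein linked to DNA demethylation and to growth arrest, measured 10.02, 9.95, 9.74 and 9.24 at 24 h, against 7.14, 8.54, 7.69 and 7.45 at 0 h. The groups did not overlap, and the rise was 2.03 ± 0.29 or 4.09-fold (adjusted p = 8.56e-05). IDH2, the mitochondrial isocitrate dehydrogenase, changed by -0.43 ± 0.13 (adjusted p = 0.0455), a call lost in 6 of the 8 fits that left out 1 array (adjusted p up to 0.124). The methyltransferases DNMT3B (0.12 ± 0.19, adjusted p = 0.796) and DNMT3A (-0.38 ± 0.14, adjusted p = 0.115) and the dioxygenase TET1 (-0.16 ± 0.12, adjusted p = 0.481), named here after their values were seen, were not called.

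The largest changes included genes of no list. CUZD1, a CUB and zona pellucida domain protein, measured 11.37, 11.95, 11.83 and 11.70 at 24 h, against 7.96, 10.45, 8.71 and 8.42 at 0 h, a rise of 2.83 ± 0.39 or 7.11-fold (adjusted p = 4.42e-05). Replicate 2 was far above the other 0 h arrays, and without replicate 2 of both times the rise was 3.27. BCL6, a transcriptional repressor, measured 9.56, 9.64, 9.65 and 9.82 at 24 h, against 7.85, 8.15, 7.64 and 8.19 at 0 h, a rise of 1.71 ± 0.19 (adjusted p = 2.04e-06). CAVIN3, a coat protein of caveolae, measured 11.86, 12.18, 11.64 and 11.58 at 24 h, against 9.97, 10.44, 10.13 and 9.94 at 0 h, a rise of 1.69 ± 0.21 (adjusted p = 1.22e-05). TIPARP, a poly(ADP-ribose) polymerase family member that the aryl hydrocarbon receptor induces, measured 9.83, 9.27, 9.99 and 10 at 24 h, against 8.20, 8.30, 8.17 and 8.42 at 0 h, a rise of 1.5 ± 0.19 (adjusted p = 1.22e-05). The rises of this paragraph were picked among genes whose 24 h arrays all lie above those of 0 h, so this separation follows from that choice. MAP1LC3C, a member of the LC3 family of autophagy proteins, averaged 9.22 ± 0.93 at 24 h and 7.67 ± 0.36 at 0 h (SD, n = 4 each), with replicate 4 at 24 h far above the others at 10.60 (rise 1.55 ± 0.28, adjusted p = 0.00104). The rise of MAP1LC3C was 0.80 from replicates 1 and 2 alone (adjusted p = 0.0289) and 2.30 from replicates 3 and 4 alone (adjusted p = 0.0305). IGFBP5, a binding protein of insulin-like growth factors, rose by 1.49 ± 0.33 (adjusted p = 0.00558).

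Among the falls outside the lists, VSNL1, a neuronal calcium sensor, measured 8.60, 8.64, 8.80 and 8.97 at 24 h, against 10.56, 10.17, 10.38 and 10.91 at 0 h, a change of -1.75 ± 0.27 (adjusted p = 0.000183). NTS, the precursor of the peptide neurotensin, measured 8.58, 8.64, 9.50 and 9.89 at 24 h, against 10.87, 10.35, 10.74 and 11.01 at 0 h, a change of -1.59 ± 0.27 (adjusted p = 0.000554). NFE2L3, a transcription factor of the cap'n'collar family, changed by -1.5 ± 0.20 (adjusted p = 2.48e-05), and a second measurement listed for it was below background. AK4, a mitochondrial adenylate kinase, changed by -1.40 ± 0.25 (adjusted p = 0.000716). The phospholipases PLA2G4C and PLA2G3 changed by -1.36 ± 0.25 (adjusted p = 0.000917) and -1.24 ± 0.14 (adjusted p = 6.09e-06). BTBD17, a BTB domain protein, measured 8.70, 8.82, 8.15 and 8.65 at 24 h, against 9.91, 9.48, 10.34 and 9.61 at 0 h, a change of -1.26 ± 0.22 (adjusted p = 0.000609). These 7 genes were picked among falls with groups that do not overlap, so the lack of overlap follows from that choice.

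Some genes of cell contacts and matrix changed. Of 18 epithelial junction genes CLDN3, a claudin of tight junctions, was called higher (0.96 ± 0.22, adjusted p = 0.00673), and the list median was 0.25. Of 13 mesenchymal and matrix genes 3 were higher and 1 lower, with a median of 0.12, beside 3.97% and 3.24% of all genes tested. COL1A1, a chain of collagen I, rose by 0.87 ± 0.24 (adjusted p = 0.0252), VIM, the intermediate filament vimentin, by 0.57 ± 0.13 (adjusted p = 0.00663) and CDH11, a cadherin, by 0.55 ± 0.17 (adjusted p = 0.0437), and COL5A2, a chain of collagen V, changed by -0.54 ± 0.14 (adjusted p = 0.0193). Of the 8 fits that left out 1 array, CDH11 lost its call in 7 (adjusted p up to 0.133), COL1A1 in 5 (up to 0.078) and COL5A2 in 2 (up to 0.0805). Of 9 Eph receptors and ephrins EPHA2, which is also an ERK target, was lower (-0.45 ± 0.10, adjusted p = 0.00684).

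Markers of other cell types were mostly below background. Of 19 markers of primitive streak and mesoderm 18 were below background on all 8 arrays, TBXT, EOMES, MESP1 and TBX6 among them, and the summed signal was 1739 to 1808 at 24 h and 1841 to 1944 at 0 h. KDR, the receptor of vascular endothelial growth factor and the exception, measured 7.16, 7.12, 6.85 and 7.10 at 24 h, against 8.18, 8.16, 7.74 and 7.59 at 0 h (-0.86 ± 0.12, adjusted p = 4.42e-05). At 24 h its mean of 7.06 lay at background, with 3 arrays barely above it, so the size of the fall is uncertain. KDR was also the only call among endothelial and blood markers, of which 10 of 13 were below background on all 8 arrays (summed signal 1878 to 2527 at 24 h and 2417 to 2729 at 0 h). SOX17, FOXA2 and GATA6 were below background with 4 more of the 10 endoderm markers, and of the 4 tested none was called by limma or had an unadjusted p under 0.05 (summed signal 1070 to 1365 at 24 h and 1017 to 1219 at 0 h). AFP, named here after its values were seen, was above background on all 8 arrays (0.13 ± 0.26, adjusted p = 0.828). KRT5 and KRT14 were below background with 5 more of the 9 epidermal markers (summed signal 1692 to 2399 at 24 h and 1771 to 2043 at 0 h). The trophoblast and amnion list summed to 2238 to 3240 at 24 h and to 1809 to 2003 at 0 h, while 9 of its 14 markers were below background on all 8 arrays, CGA, GATA3 and TFAP2A among them. Its rises were of TFAP2C, an AP-2 factor that stem cells also express, which measured 8.58, 8.50, 8.78 and 9.11 at 24 h, against 7.85, 7.73, 7.65 and 8.23 at 0 h (0.88 ± 0.17, adjusted p = 0.00144), and of IGFBP3, a binding protein of insulin-like growth factors, which measured 8.88, 10.56, 8.85 and 8.80 at 24 h, against 7.73, 8.38, 7.75 and 7.87 at 0 h (1.34 ± 0.36, adjusted p = 0.0215). Without replicate 2 of 24 h the change of IGFBP3 was 0.91 (adjusted p = 0.0807), and without replicate 1 or 3 of 0 h its call was lost too. Of the 4 tested members of this list 2 were thus called higher, beside 3.97% of all genes tested, and 3 had an unadjusted p under 0.05. KRT7 was above background on 3 arrays at 24 h and 0 at 0 h, and was not called (0.42 ± 0.14, adjusted p = 0.0744). GABRP was above background on all 8 arrays and was not called either (-0.13 ± 0.23, adjusted p = 0.808). Both are named here after their values were seen. What part other cells have in these values was not tested. In the neural crest list, 6 of 15 markers were below background on all 8 arrays, PAX3 and TFAP2B among them (summed signal 3812 to 4052 at 24 h and 3372 to 3986 at 0 h). SOX9, a SOXE factor, rose by 0.91 ± 0.19 (adjusted p = 0.00293). SOX10, another SOXE factor, was above background on 4 arrays at 24 h and none at 0 h, at least 1.31-fold higher (adjusted p = 0.0241). FOXD3, a forkhead factor of stem cells and of crest, was above background on none at 24 h and 2 at 0 h, at least 1.09-fold lower (adjusted p = 0.046). The call of SOX10 was lost in 3 and that of FOXD3 in 5 of the 8 fits that left out 1 array (adjusted p up to 0.0968 and 0.169).

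The levels at the other times place the 24 h values in the course and are given as description. DUSP6 averaged 10.41, 7.80, 7.56, 6.95, 6.90 and 6.99 at 0, 12, 24, 36, 48 and 72 h, and was thus already low at 12 h. SOX21 averaged 9.36, 10.99, 11.76, 12.44, 12.76 and 13.19 at the same times, higher at each step. IRX3 averaged 8.55, 9.18, 9.92, 11.21, 11.75 and 11.15, highest at 48 h. NANOG averaged 8.96, 8.0, 8.04, 7.64, 7.00 and 6.54, and POU5F1 12.36, 12.09, 11.98, 11.70, 11.49 and 10.55, so that both were still above background at 24 h. Several genes lay nearer to their 0 h means again at 72 h. ID3 averaged 11.71, 10.16, 10.12, 10.79, 10.82 and 11.51, and SFRP2 11.38, 10.01, 9.85, 9.78, 10.42 and 11.41. MT2A averaged 9.59, 12.23, 12.38, 10.95, 9.48 and 8.19, and ACTA1 10.96, 13.01, 12.65, 12.25, 11.36 and 10.81, both near or below the 0 h mean at 72 h. TXNIP averaged 10.57, 10.01, 12.73, 10.40, 12.15 and 12.30. It was higher at 24, 48 and 72 h than at 0, 12 and 36 h. PAX6 averaged 6.72, 6.75, 6.68, 6.73, 7.06 and 9.85, and passed background in all 4 arrays only at 72 h.

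**Figure D4:**
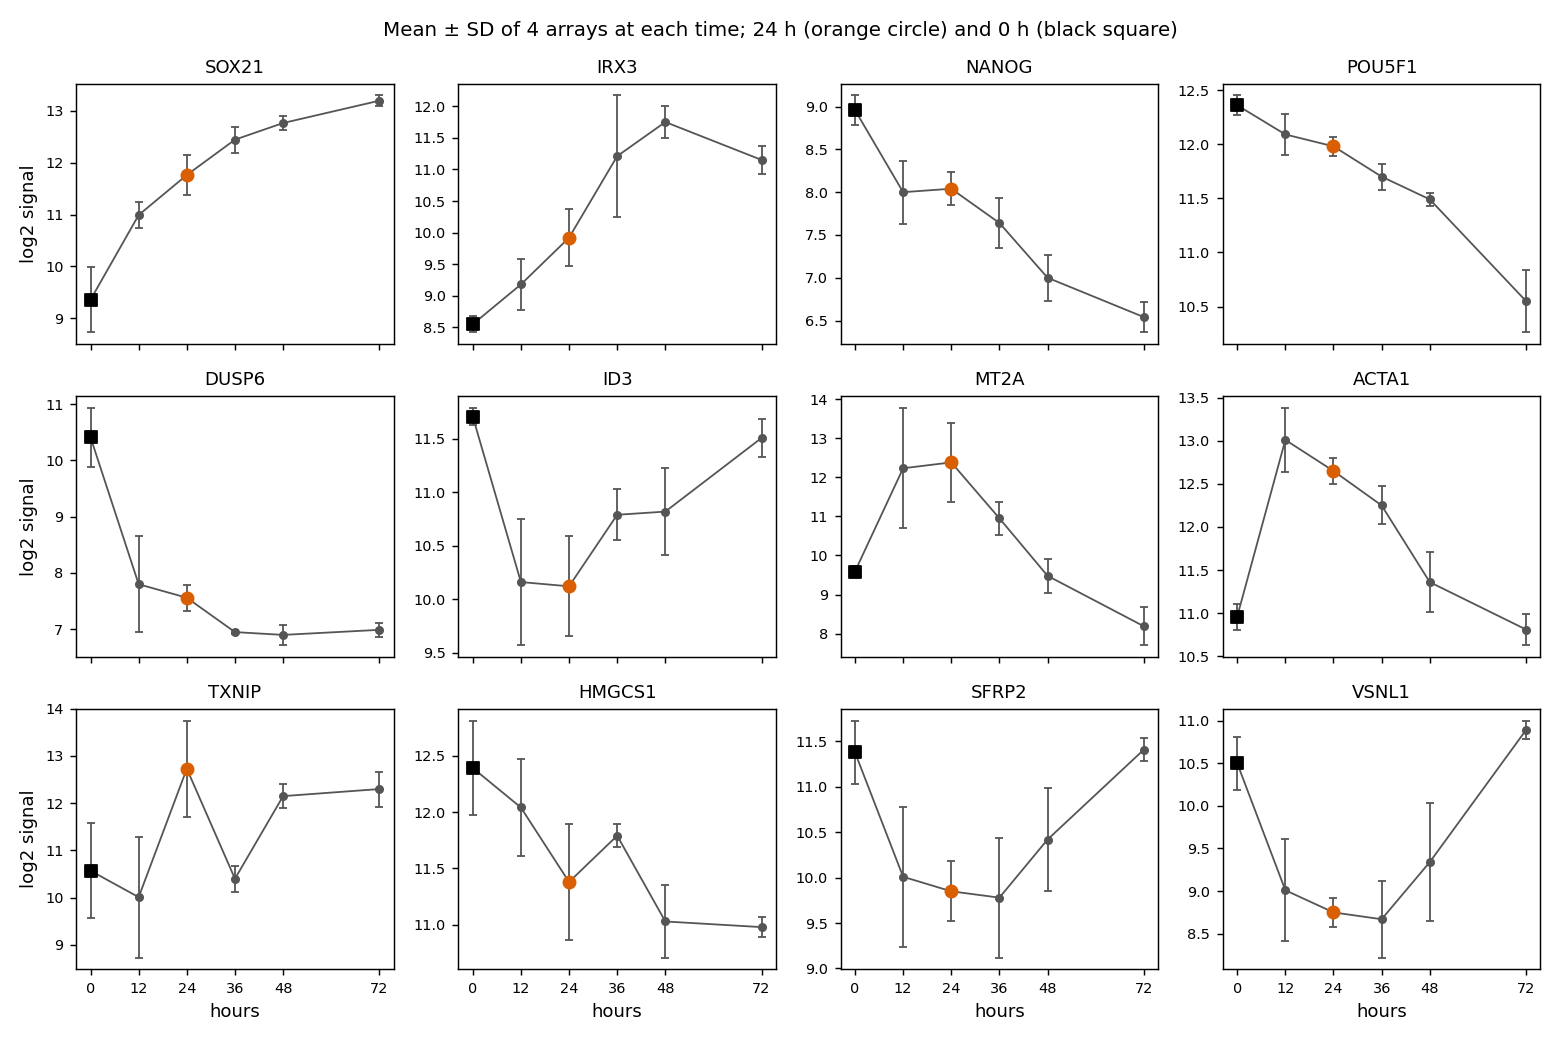
Mean log2 signal ± SD of 4 arrays (vertical axes) at 0, 12, 24, 36, 48 and 72 h after the start of treatment (horizontal axes) for 12 genes, with 24 h marked in orange and 0 h in black. SOX21 and IRX3 are higher and NANOG and POU5F1 lower at 72 h than at 24 h, while ID3, SFRP2 and ACTA1 at 72 h lie near their 0 h means.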

How the data were processed

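Total RNA of 24 samples was hybridised to Illumina HumanHT-12 v4 arrays, per the labels, 4 at each of 6 times. The values are the deposited log2 signals of 37900 rows. Their quantiles nearly coincide across arrays, so the authors had normalized them. The software, background correction and method used for this were not given in the sources used here. A second deposited table was not used, because its 48 value columns match no sample label. Identical values were shared by 10159 rows, and each of the 4746 sets was counted once. The platform annotation named 26228 rows. Of 17760 named genes, 10215 were tested, those above the background of 7.10 (99th percentile of 387 olfactory receptor measurements) on at least 4 arrays. The measurement with the highest mean stood for a gene, and 1936 tested genes had a repeated value. The design had planned detection p-values as the filter, and the deposited log2 signals allowed only this one.

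The model had 6 time means over the 24 arrays (limma 3.58.1, lmFit then eBayes, under R 4.3.3), and 24 h was compared with 0 h. P-values were two-sided, with Benjamini-Hochberg adjustment at 0.05. The script was tested on simulated data. Fold bounds ("at least") are set against background where all 4 arrays of a time lie below it. Arrays give no counts, so their number limits the precision. Named genes are the 15 largest called rises and falls with groups that do not overlap, up to 4 called members with the largest change per list, and 16 chosen genes. The comparison, members and lists were chosen with earlier results of these data known. Promoter sequences come from a set made from RefSeq (GRCh38.p14). It held no promoter of MT1A, MT1E, MT1F, MT1G, MT1M, MT3, TAGLN or MYL9, so these were not searched. The alternatives tried were 24, 21 planned and 3 added after seeing the data.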

Additional observations from a re-analysis of the deposited data

Results flagged for a closer look

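In 13 of the 194 groups of 4 arrays (97 named genes at 24 h and 0 h), 1 array stood farther from the others than Dixon's 95% limit allows, which chance alone does in about 1 of 20 groups. At 24 h, replicate 4 stood apart 4 times: SOX21 was low at 11.17 beside 11.91 to 12.02, and MAP1LC3C was high at 10.60 beside 8.63 to 8.93, SOX9 at 9.18 beside 8.86 to 8.91 and IDH2 at 9.84 beside 9.43 to 9.50. Replicate 2 at 24 h stood apart 2 times, IGFBP3 being high at 10.56 beside 8.80 to 8.88 and FOS low at 6.38, below background, beside 7.26 to 7.45. At 0 h, replicate 3 stood apart 4 times: BUB1 was low at 10.71 beside 11.33 to 11.43, IDH2 at 9.59 beside 10.10 to 10.15 and IGFBP5 at 6.85, below background, beside 7.97 to 8.11, and MT1H was high at 10.35 beside 9.98 to 10.03. The remaining 0 h arrays were replicate 1 for ACTG2 (9.51 beside 9.22 to 9.26), replicate 2 for IRX2 (10.85 beside 10.29 to 10.38) and replicate 4 for CHAF1A (8.33 beside 8.68 to 8.73).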

How the results depend on the processing

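No gene called in the full fit reversed under any of the 24 alternatives in which it was tested. Of the 88 called named genes 14 kept the call in all 24, and 4 more (DUSP6, ETV4, ETV5 and SPRY4) in the 23 that tested them. The 406 rises and 331 falls became 212 and 137 with the 8 arrays of 24 h and 0 h alone, 65 and 40 with replicates 1 and 2 alone, and 51 and 52 with replicates 3 and 4 alone, where fewer arrays were fitted by construction. Rises of at least 2-fold, 52 in the full fit, became 33 and 27 in the fits of replicates 1 and 2 and of 3 and 4. Leaving out 1 array gave 259 to 404 rises and 233 to 358 falls, with 43 to 58 and 19 to 25 of at least 2-fold. The lowest count of rises came without replicate 3 of 0 h, and the cause was not tested. With replicate number as a block the fit called 486 higher and 420 lower. The labels number the arrays 1 to 4 at each time. Same-numbered deviations of 24 h and 0 h correlated at 0.307, 0.584, -0.065 and 0.33, and replicate 3 of 24 h correlated best with replicate 4 of 0 h, so the numbers are not taken to pair the samples. Without the 6 arrays that deviate alike, 412 rises and 335 falls were called, and without replicate 2 of both times 331 and 275. The change of PAX6, -0.04, was -0.20 to 0.11 with 1 array left out, positive without replicate 4 of 24 h (0.08) and without replicate 2 of 0 h (0.11). OTX2 passed the threshold in 6 alternatives.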
